A study of Homo sapiens with 12 samples.

Results

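The response of DU145 cells to decitabine alone was followed through 6 of the 12 libraries of the study, 3 from decitabine-treated cells (DAC) against 3 from vehicle-treated cells (Ctrl). DU145 is a prostate cancer line that was established from a metastasis in the central nervous system. DAC cells had received 33 nM decitabine once a day on 3 days, Ctrl cells had received DMSO, and all were then grown without drug for 17 days before total RNA was taken for stranded sequencing. The other 6 libraries came from cells given decitabine with 2 nM triptolide (DACTPL) and from cells given 2 nM triptolide alone (TPL), on the same schedule. DACTPL against TPL is a second decitabine comparison that shares no library with the first. The decitabine dose of DACTPL was not settled, being 33 nM in one field of its labels and 3 nM in another. Of 26341 genes in the deposited table, 15890 passed the filter on low counts and were tested, and 13810 of these averaged at least 1 CPM (count per 1000000 counts of a library) in Ctrl and are called expressed here.

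Decitabine is a cytidine analogue. Once it is built into DNA it traps DNA methyltransferases, and dividing cells then lose methylation at CG dinucleotides (CpG sites) with each round of replication. The drug is best known for switching on germline genes that are silenced by methylation and for raising interferon-stimulated genes. The question here was what happened, after a long time without drug, to genes that these cells already transcribed.

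Depth, in units of 1000000 expected counts, was 37.52, 32.78 and 43.74 in DAC, against 38.65, 29.08 and 47.02 in Ctrl. The line's epithelial keratins KRT8 and KRT18 were abundant in all 6 libraries, the adhesion genes EPCAM and CDH1 were expressed, and KLK3, which encodes prostate-specific antigen, had 0 counts throughout. Of 10 stromal markers the summed level was 10.6 to 14.6 CPM in DAC, with 0 members without counts, and 9.81 to 12.4 CPM in Ctrl, with DCN, LUM and THY1 without counts. Of 14 blood cell markers the sum was 37 to 46.8 CPM in DAC, with CD3E, CD4, HBA1, HBB and MS4A1 at 0, and 51.4 to 55.6 CPM in Ctrl, with the same 5 genes and CD3D among the 7 at 0. Most of the blood sum was CD68, a lysosomal protein of macrophages that this line also transcribes. Whether the 3 replicates of a group came from separate cultures is not stated in the labels, and p-values here measure only the spread between libraries, which may be technical.

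Among expressed genes, decitabine left many small differences and few large ones. Of 13810 expressed genes, 710 were higher in DAC (5.14% of those tested) and 548 were lower (3.97%), each at an adjusted p below 0.05 (edgeR's quasi-likelihood test, two-sided, with Benjamini-Hochberg adjustment over all 15890 tested genes). Of the 710 rises 493 (69.4%) were smaller than 1.5-fold, and of the 548 falls 437 (79.7%) were. The DAC and Ctrl libraries did not overlap in CPM for 710 of the 710 rises and 546 of the 548 falls. A gap between the groups is thus common to nearly all calls. The median log2 fold change was 0.39 (quartiles 0.28 and 0.66) among rises and -0.38 (quartiles -0.53 and -0.28) among falls. Changes of 2-fold or more were mostly increases, with 82 genes higher (0.594%) and 11 lower (0.0797%). In bulk RNA, fewer cells that express a gene and less of its RNA per cell cannot be told apart.

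The split between rises and falls moved with the scaling. Rises were 56.4% of the expressed genes called on counts and 22.4% of those called by limma on log2(TPM + 1), a scale on which the median of all genes lay at -0.08 (-0.10 with 0.1 added in place of 1). Without Ctrl replicate 1 there were 320 rises and 218 falls, without Ctrl replicate 2 340 and 239, without DAC replicate 1 444 and 272, and without DAC replicate 2 337 and 210, all fewer than from the full set. The 11 falls of 2-fold or more became 41 without DAC replicate 3 and 7 without DAC replicate 2.

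Among called genes, the size of a change went with the level in the vehicle-treated cells (Ctrl). Per length of transcript, expressed genes that rose had a median Ctrl level of 12.3 TPM (transcripts per 1000000 transcripts), those that fell 7.95 TPM, and those not called 12.4 TPM. In CPM, which is not scaled by length, the medians were 20.8, 22.1 and 26.8 in the same order. Whether rises or falls had the lower level thus depended on the unit. The classes of level that follow cover all 15890 tested genes, expressed or not. Between 1 and 10 TPM in Ctrl, 275 of 5550 genes rose with a median log2 fold change of 0.57, and 285 fell with a median of -0.44. Between 10 and 100 TPM, 294 of 6766 rose (median 0.30) and 216 fell (median -0.29). At 100 TPM and more, 81 of 904 rose (median 0.29), 19 fell (median -0.32), and 0 changed by 2-fold. At 0.1 to 1 TPM in Ctrl, 224 of 2427 rose with a median of 1.26, against 50 that fell with a median of -0.87. Rises of 2-fold were thus found among genes of low and moderate level. The Ctrl level enters both the grouping and the fold change, which by itself favours rises in the lowest class. Genes under 1 CPM in Ctrl could also pass the filter on low counts through the decitabine libraries alone. The count of rises in the lowest class is therefore a description and adds no support. The medians cover called genes only, and at low counts a change must be larger to be called. The trend of size with level cannot be told apart from this limit.

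**Figure D1:**
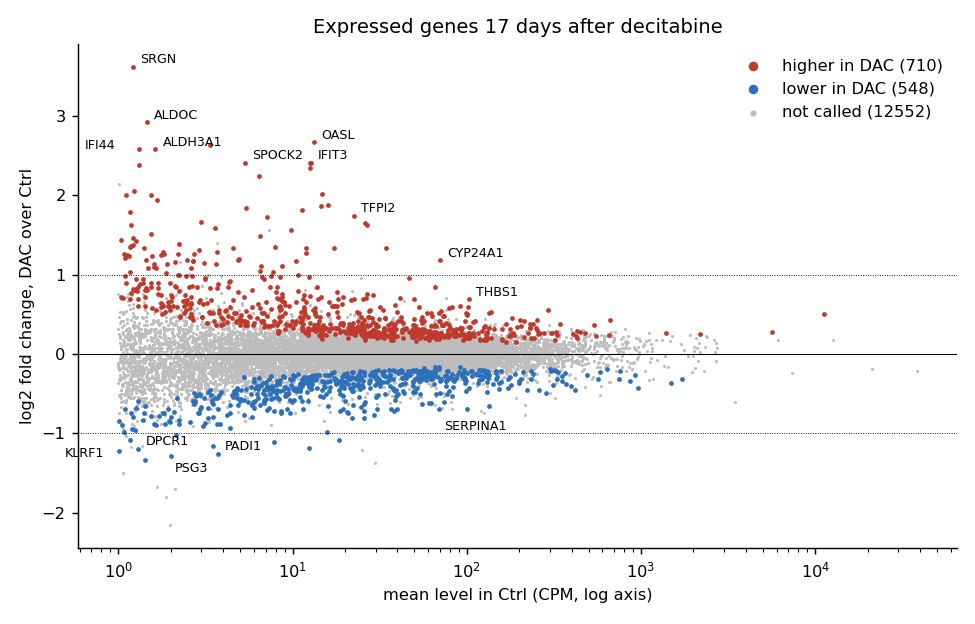
Log2 fold change of DAC over Ctrl (vertical) against the mean level in Ctrl in CPM (horizontal, log axis) for 13810 expressed genes, 1 point a gene, red for 710 higher, blue for 548 lower and grey for genes not called. Dotted lines mark 2-fold. Red points spread upwards at low and moderate levels, up to SRGN at 3.62, while 11 blue points lie past 2-fold.

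The largest rise of an expressed gene was that of SRGN, serglycin, the proteoglycan core of secretory granules. SRGN had 15.1, 15.7 and 14.7 CPM in the DAC libraries, against 1.11, 1 and 1.5 CPM in the Ctrl libraries. The lowest DAC library was far above the highest Ctrl library, and the log2 fold change was 3.62 (SE 0.13, edgeR adjusted p = 2.41e-09). SPOCK2, a proteoglycan of the extracellular matrix, had 29.3, 28 and 27.6 CPM in DAC, against 5.16, 5.09 and 5.64 CPM in Ctrl. Its replicates were close within each group, and it had the smallest adjusted p of the 12 largest rises that were named, counted here without hyphenated symbols, repeated entries and further members of a family (log2 change 2.41, SE 0.07, adjusted p = 7.33e-10). PLAT, the tissue-type plasminogen activator, had 5.19, 5.4 and 4.75 CPM in DAC, against 0.935, 1.31 and 1.44 CPM in Ctrl (2.05, SE 0.17, adjusted p = 6.2e-06).

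ALDOC, PDK4, PLIN4 and ALDH3A1 were also among the 12 largest rises. ALDOC, the brain-type aldolase of glycolysis, had 9.59, 10.1 and 12.9 CPM in DAC, against 1.59, 1.54 and 1.23 CPM in Ctrl (log2 change 2.92, SE 0.16, edgeR adjusted p = 1.23e-07). PDK4, a kinase that shuts off pyruvate dehydrogenase, had 27.7, 27.5 and 35.9 CPM in DAC, against 5.56, 6.63 and 7 CPM in Ctrl (2.25, SE 0.13, adjusted p = 2.82e-07). The groups did not overlap for either gene, which the choice of the 12 required. PLIN4, a perilipin of lipid droplets, averaged 6.91 CPM in DAC and 1.32 CPM in Ctrl (2.38, SE 0.14, adjusted p = 3.53e-07). ALDH3A1, which oxidises aldehydes, averaged 9.75 CPM in DAC and 1.63 CPM in Ctrl (2.58, SE 0.11, adjusted p = 1.97e-08). The remaining 5 of the 12 largest rises, OASL, IFI44, IFIT3, IFIT2 and DDX60, are interferon-stimulated. All 12 remained called whichever single library was left out.

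**Figure D2:**
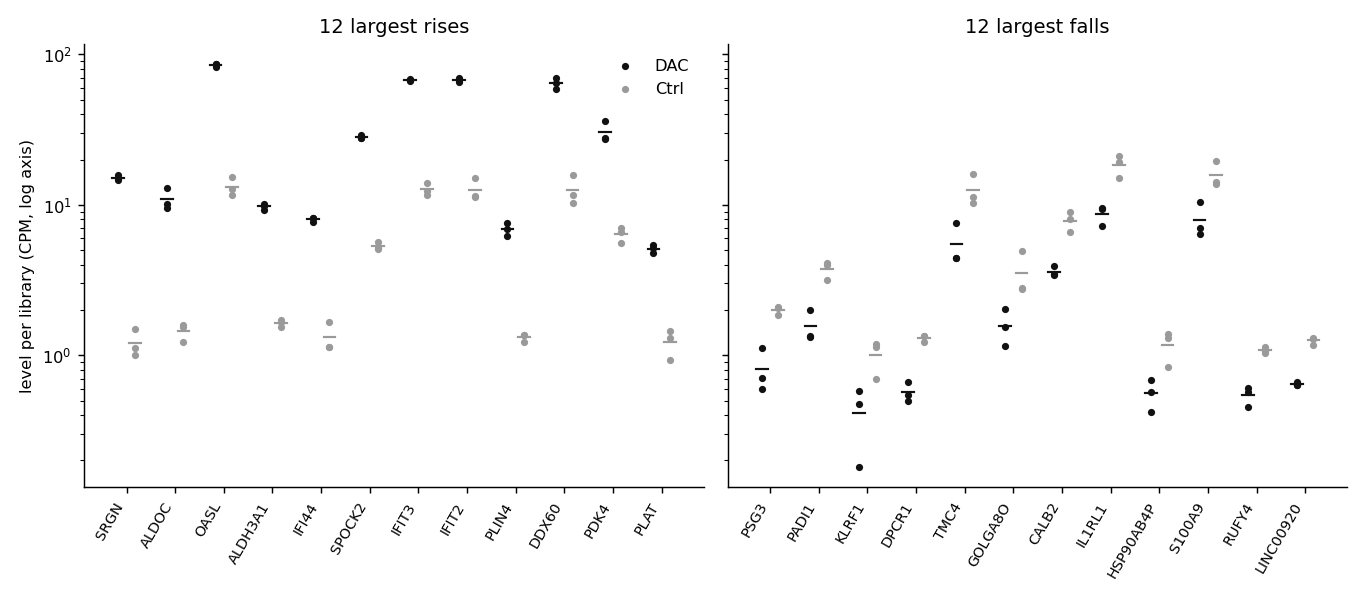
Level in CPM (log axis) of the 12 largest rises (left) and the 12 largest falls (right) among expressed genes, passing over hyphenated symbols, further family members and genes not named here, 3 DAC libraries (black) left of 3 Ctrl libraries (grey) for each gene, with a bar at the mean. The genes were picked among those whose groups do not overlap, so a gap in each of the 24 was fixed by the choice. The gap is wider among rises than among falls.

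Rises of 1.5-fold or more also reached abundant transcripts. The 5 with the highest Ctrl levels were THBS1, MYO1E, COL4A2, SERPINH1 and CYP24A1, all protein-coding. CYP24A1, the hydroxylase that inactivates vitamin D, had 156, 156 and 163 CPM in DAC, against 64.9, 65.7 and 78.9 CPM in Ctrl (log2 change 1.18, SE 0.08, edgeR adjusted p = 7.83e-07). COL4A2, a basement membrane collagen chain, averaged 138 ± 8.24 CPM in DAC and 90.9 ± 1.85 CPM in Ctrl (SD, n = 3 each; 0.61, SE 0.07). SERPINH1, the collagen chaperone HSP47, had 121, 127 and 122 CPM in DAC, against 77.7, 81.1 and 87.6 CPM in Ctrl, and MYO1E, a membrane-linked myosin, averaged 153 ± 2.38 CPM in DAC and 102 ± 4.25 CPM in Ctrl. THBS1, the matrix protein thrombospondin, averaged 165 ± 10 CPM in DAC and 103 ± 13.3 CPM in Ctrl (0.69, SE 0.17, adjusted p = 0.0296), and its call was lost in 5 of the 6 runs that left out a library, all but the one without Ctrl replicate 3 (highest adjusted p 0.113).

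Of 51 expressed interferon-stimulated genes 29 rose and 0 fell, beside 5.14% and 3.97% of all expressed genes, with a median log2 fold change over the 51 of 0.45, where the median over all expressed genes was 0.004. Rises ran from 0.22 to 2.67, and 14 of the 29 were 2-fold or more. The 51 are the members with at least 1 CPM in Ctrl, and counted over all 60 tested members 37 rose (background 6.27% of all tested genes). Members under 1 CPM in Ctrl could pass the filter on low counts through the decitabine libraries alone. The count of 37 is therefore a description and adds no support. The summed level of the 51 was 2802, 2824 and 3113 CPM in DAC, against 2140, 2096 and 2262 CPM in Ctrl. Every DAC library was thus above every Ctrl library for the sum as well. Left out one at a time, the libraries gave 23 to 31 rises. The list was drawn up with earlier results on this group known and gives no independent evidence of its direction.

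OASL, a catalytically inactive relative of the antiviral oligoadenylate synthetases, had 81.9, 86 and 86.1 CPM in DAC, against 12.8, 11.6 and 15.2 CPM in Ctrl (log2 change 2.67, SE 0.11, edgeR adjusted p = 8.02e-09). IFIT3 and IFIT2, which belong to a family of antiviral proteins with tetratricopeptide repeats, rose by 2.41 each (SE 0.08 and 0.12). IFIT3 had 66.3, 67.5 and 68.8 CPM in DAC, against 12.3, 11.7 and 14 CPM in Ctrl, and its adjusted p was 2.28e-09. DDX60, a helicase linked to sensing of viral RNA, had 64.5, 59.1 and 70.1 CPM in DAC, against 10.3, 11.7 and 15.8 CPM in Ctrl (2.35, SE 0.21, adjusted p = 4.58e-05). IFI44 started from a lower level, with 8.19, 7.69 and 8.18 CPM in DAC, against 1.14, 1.14 and 1.67 CPM in Ctrl (2.58, SE 0.18). In each of these genes Ctrl replicate 3 was the highest Ctrl library and still lay well below the lowest DAC library.

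The promoters of leading interferon-stimulated genes are shown with an element that is named after this class of genes. Its presence in members of the list is therefore no independent support. Each line gives 250 bases before the first transcription start listed by RefSeq on GRCh38.p14, 5′ to 3′, with matches to the interferon-stimulated response element, searched on both strands as GAAA, any 2 bases and GAAA, in capitals.
IFIT3, chr10:89327747-89327996, plus strand: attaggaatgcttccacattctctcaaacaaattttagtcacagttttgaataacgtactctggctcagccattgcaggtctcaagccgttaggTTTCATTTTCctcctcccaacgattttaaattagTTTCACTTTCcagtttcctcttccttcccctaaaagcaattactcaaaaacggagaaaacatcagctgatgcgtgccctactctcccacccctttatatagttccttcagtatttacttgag
DDX60, chr4:168318753-168319002, minus strand: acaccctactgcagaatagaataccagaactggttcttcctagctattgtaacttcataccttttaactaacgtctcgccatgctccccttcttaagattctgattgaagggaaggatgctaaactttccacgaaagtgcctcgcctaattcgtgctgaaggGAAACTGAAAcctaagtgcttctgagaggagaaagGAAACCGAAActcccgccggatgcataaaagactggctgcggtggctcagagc
IFI44, chr1:78649539-78649788, plus strand: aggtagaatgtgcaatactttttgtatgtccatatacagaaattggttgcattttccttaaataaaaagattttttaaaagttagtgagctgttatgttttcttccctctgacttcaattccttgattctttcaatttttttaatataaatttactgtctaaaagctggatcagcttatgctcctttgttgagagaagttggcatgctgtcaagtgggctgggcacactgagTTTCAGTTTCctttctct
IFIT3 and DDX60 each held 2 copies and IFI44 held 1. Windows of 300 bases, 250 before to 50 after the start, were searched for all tested members, including those under 1 CPM in Ctrl. Of the 37 rising members 29 had a promoter in the table, and 20 of these 29 held the element (69%). Of the 20 members not called that had a promoter, 8 held it (40%). Of all tested genes with a promoter 2.89% held it. Of the 534 rises outside the list, which unlike the 37 were expressed genes only, 20 did (3.75%). OASL and IFIT2 had no entry in the table. A match describes these letters and is not evidence that a factor was bound.

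Class I antigen presentation, which loads peptides onto HLA molecules for display to T cells, moved less. Of 21 expressed members 8 rose (38.1%, background 5.14%), by 0.32 to 0.52 on the log2 scale, and 0 fell (background 3.97%). The list's median was 0.23. TAP1, a subunit of the peptide transporter, had 72.4, 76 and 70.2 CPM in DAC, against 55.5, 56.7 and 54.3 CPM in Ctrl (0.39, SE 0.08). The immunoproteasome subunits PSMB9 and PSMB10 rose by 0.51 and 0.52, but PSMB9 was not called without Ctrl replicate 1 (adjusted p = 0.059) and PSMB10 was lost in 4 of the 6 runs that left out a library. The count of rises was 3 without Ctrl replicate 1, 4 without Ctrl replicate 2 and 5 without DAC replicate 1.

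Among genes of glycolysis and the hypoxia response a few members changed strongly. Of 34 expressed members 6 rose (17.6%, background 5.14%) and 2 fell (5.88%, background 3.97%). The median was 0.03, and -0.07 on log2(TPM + 1), where that of all genes was -0.08. The falls numbered 4 without DAC replicate 3 and 1 without any other single library. SLC2A3, the neuronal-type glucose transporter, had 5.98, 5.25 and 7.13 CPM in DAC, against 1.54, 1.74 and 1.36 CPM in Ctrl (log2 change 2.00, SE 0.14, edgeR adjusted p = 1.3e-06). ADM, the vasodilator peptide adrenomedullin, rose by 1.62 (SE 0.25) and the carbonic anhydrase CA12 by 0.99 (SE 0.13). With ALDOC these were the 4 largest changes of the list, and ALDOC, SLC2A3 and ADM were past 2-fold. Of 226 expressed solute carriers 17 rose (7.52%, background 5.14%) and 9 fell (3.98%, background 3.97%), led after SLC2A3 by the glutamate transporter SLC1A3 (1.51, SE 0.20), the cationic amino acid transporter SLC7A2 (1.04, SE 0.10) and the creatine transporter SLC6A8 (0.97, SE 0.08). The 17 rises were 8 and 9 without Ctrl replicates 1 and 2, and 11 and 10 without DAC replicates 1 and 2, and the 9 falls were 5, 5 and 4 without Ctrl replicate 1, Ctrl replicate 2 and DAC replicate 2.

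Sterol synthesis was the metabolic pathway whose members lay below 0. Of 25 expressed members 6 fell (24%, background 3.97%) and 1 rose (4%, background 5.14%). The falls were of -0.28 to -0.32 on the log2 scale, and 24 of the 25 had a lower fitted level in DAC (median -0.23). CYP51A1, which demethylates lanosterol, had 264, 251 and 283 CPM in DAC, against 315, 332 and 343 CPM in Ctrl (log2 change -0.31, SE 0.07, edgeR adjusted p = 0.0138). HMGCS1, which makes the precursor of mevalonate, had 181, 171 and 208 CPM in DAC, against 228, 225 and 247 CPM in Ctrl (-0.32, SE 0.08). The call of HMGCS1 was lost in every run that left out a library but the one without DAC replicate 3 (highest adjusted p 0.14), and that of CYP51A1 without Ctrl replicate 2, DAC replicate 1 or DAC replicate 2 (highest adjusted p 0.0769). The count of falls moved with the libraries, and was 0 without Ctrl replicate 2, DAC replicate 1 or DAC replicate 2, 1 without Ctrl replicate 1 or Ctrl replicate 3, 10 without DAC replicate 3, and 14 without all libraries numbered 3. Of 24 expressed genes of fatty acid synthesis 2 fell (8.33%, background 3.97%) and 0 rose. The falls were ACSS2, which makes acetyl-CoA from acetate (-0.32, SE 0.06), and LPIN1, a phosphatidate phosphatase (-0.30, SE 0.05).

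Oxidative stress genes controlled by NRF2 included 6 rises among 30 expressed members (20%, background 5.14%) and 0 falls (median 0.18). The rises were 4 without Ctrl replicate 1, Ctrl replicate 2 or DAC replicate 2. By limma on log2(TPM + 1) 2 members rose (median 0.07). In DACTPL against TPL 1 member was higher and 1 lower (median 0.06). ABCC2, a pump for conjugated drugs and bilirubin, had 28.6, 29.7 and 28.7 CPM in DAC, against 10.4, 9.91 and 9.28 CPM in Ctrl (log2 change 1.56, SE 0.08, edgeR adjusted p = 4.81e-08). HMOX1, haem oxygenase, had 30.2, 32.5 and 27.2 CPM in DAC, against 17.9, 18.3 and 21.7 CPM in Ctrl (0.63, SE 0.09, adjusted p = 0.000945). Both groups of libraries were apart in both genes, as in all 710 expressed rises. Of 30 expressed genes of the ATF4 and unfolded protein response 5 rose and 0 fell, led by the transcription factor ATF5, which averaged 20.1 ± 3.45 CPM in DAC and 7.88 ± 0.568 CPM in Ctrl (1.35, SE 0.12, adjusted p = 1.12e-05). The amino acid exchanger SLC7A5 averaged 432 ± 28 CPM in DAC and 293 ± 19.8 CPM in Ctrl (0.56, SE 0.09). The list's median was 0.07 (-0.03 on log2(TPM + 1), where that of all genes was -0.08), and its 5 rises were 3 without Ctrl replicate 1, Ctrl replicate 2, DAC replicate 1 or DAC replicate 2.

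Genes of the extracellular matrix and the cell surface changed in both directions. Rises were 31.8% of expressed collagens, 25% of integrins and laminins and 20.6% of secreted proteases, inhibitors and remodelling genes (background 5.14%). Falls were 0%, 6.25% and 8.82% in the same order (background 3.97%). Of 22 expressed collagens 7 rose and 0 fell (median 0.10), by 0.31 to 1.34. COL9A2, a chain of cartilage collagen, rose by 1.34 (SE 0.19, edgeR adjusted p = 0.000706), and COL4A1, the partner of COL4A2 in basement membranes, averaged 57.4 ± 3.11 CPM in DAC and 39.8 ± 0.95 CPM in Ctrl (0.53, SE 0.06). Of 32 expressed integrins and laminins 8 rose and 2 fell, the rises 4 without Ctrl replicate 1 or Ctrl replicate 2 and 5 without Ctrl replicate 3 or DAC replicate 2, and the falls 4 without DAC replicate 3 and 1 without any other single library. ITGB8, an integrin that activates latent TGF-beta, averaged 8.75 ± 0.812 CPM in DAC and 5.82 ± 0.11 CPM in Ctrl (0.59, SE 0.10), while the laminin chain LAMA2 averaged 4.13 ± 0.333 CPM in DAC and 6.47 ± 0.326 CPM in Ctrl (-0.64, SE 0.11). Of 34 expressed secreted proteases, inhibitors and matrix remodelling genes 7 rose and 3 fell, the falls 1 without Ctrl replicate 1 or Ctrl replicate 2. TFPI2, an inhibitor of serine proteases often methylated in tumours, had 83.4, 79.4 and 63.4 CPM in DAC, against 24.1, 23.5 and 20.1 CPM in Ctrl (1.74, SE 0.12, adjusted p = 1.52e-06). SERPINA1, alpha-1-antitrypsin, had 39, 38.1 and 51.8 CPM in DAC, against 67.8, 64.4 and 75.4 CPM in Ctrl (-0.69, SE 0.11, adjusted p = 0.00176). PLAU, the urokinase-type activator, averaged 715 ± 45.9 CPM in DAC and 964 ± 57.8 CPM in Ctrl (-0.43, SE 0.09), a fall lost without Ctrl replicate 1 or Ctrl replicate 2 (highest adjusted p 0.0556), so the pair of plasminogen activators, PLAT and PLAU, moved in opposite directions.

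Of 26 expressed mesenchymal and motility genes 6 rose (23.1%, background 5.14%) and 1, PLAU, fell (3.85%, background 3.97%), with a median of 0.20. S100A4, a calcium-binding protein of motile cells, had 19.1, 18 and 21.4 CPM in DAC, against 4.73, 4.89 and 6.58 CPM in Ctrl (log2 change 1.84, SE 0.12, edgeR adjusted p = 5.05e-07). Of 40 expressed epithelial junction and identity genes 4 rose (10%) and 5 fell (12.5%), with a median of -0.07 and none by 2-fold among those called. Their rises were 0 without Ctrl replicate 1 or Ctrl replicate 2 and 2 without DAC replicate 2 or DAC replicate 3, and their falls 1 without Ctrl replicate 1 or DAC replicate 2, 2 without Ctrl replicate 2 or DAC replicate 1 and 3 without Ctrl replicate 3. Of 11 expressed keratins 3 rose (27.3%) and 0 fell. KRT8, a simple epithelial keratin, had 890, 944 and 860 CPM in DAC, against 659, 668 and 677 CPM in Ctrl (0.43, SE 0.06), and the hair keratin KRT81, whose reads could be shared with near-identical keratins, rose by 1.34 (SE 0.16). Of 26 expressed genes often methylated in prostate tumours 6 rose (23.1%) and 0 fell. The rises were 2 without Ctrl replicate 1 and 3 without Ctrl replicate 2, DAC replicate 1 or DAC replicate 2. In DACTPL against TPL 3 of these 26 were higher and 3 lower (median -0.06). GSTP1, the glutathione transferase whose promoter methylation marks prostate cancer, had 85.9, 85.4 and 82.6 CPM in DAC, against 58.7, 58.9 and 59.6 CPM in Ctrl (0.52, SE 0.05, adjusted p = 3.93e-05). Of 25 expressed HOX genes 4 rose (16%, and 2 genes without DAC replicate 2), HOXA5 by 0.62 (SE 0.07), and 0 fell.

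Among signalling genes, 6 of 35 expressed members of the TGF-beta and BMP list rose and 1 fell, beside 5.14% and 3.97% of all expressed genes. The 6 rises were 3 without Ctrl replicate 1 or Ctrl replicate 2, and the fall was lost without either of these, DAC replicate 1 or DAC replicate 2. The co-receptor TGFBR3 averaged 18.6 ± 0.624 CPM in DAC and 11.5 ± 0.789 CPM in Ctrl (log2 change 0.69, SE 0.07, edgeR adjusted p = 4.72e-05), and the ligand BMP4 averaged 6.61 ± 0.476 CPM in DAC and 3.7 ± 0.7 CPM in Ctrl (0.83, SE 0.14). In the Wnt list 3 of 34 rose and 1 fell (3 without DAC replicate 3), with the receptor FZD4 at 13.2 ± 1.39 CPM in DAC and 6.9 ± 0.315 CPM in Ctrl (0.94, SE 0.09) and the ligand WNT3 at 15.7 ± 0.969 CPM in DAC and 21.8 ± 2.59 CPM in Ctrl (-0.47, SE 0.08). DTX4, a ubiquitin ligase of the Notch pathway, was the 1 of 24 expressed Notch genes called (0.78, SE 0.10), a count of 2 without Ctrl replicate 3 or DAC replicate 3. DUSP4, a phosphatase that turns off MAP kinases, rose by 0.48 (SE 0.05), one of 2 rises and 3 falls among 32 ERK feedback and immediate early genes. The 2 rises were 1 without any single library but Ctrl replicate 3, and the 3 falls 1 without Ctrl replicate 1, Ctrl replicate 2, DAC replicate 1 or DAC replicate 2. SEMA3F, a secreted guidance cue, averaged 14.3 ± 0.772 CPM in DAC and 6.6 ± 0.804 CPM in Ctrl (1.11, SE 0.10, adjusted p = 1.9e-05). Of 31 expressed interleukins and receptors 3 rose and 4 fell (2 falls without Ctrl replicate 1, Ctrl replicate 2, DAC replicate 2 or DAC replicate 3), with IL24 at 18.8 ± 4.07 CPM in DAC and 8.68 ± 0.816 CPM in Ctrl (1.11, SE 0.21) and IL17RE at 1.63 ± 0.234 CPM in DAC and 3.07 ± 0.337 CPM in Ctrl (-0.91, SE 0.16).

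Genes that copy and repair DNA or modify chromatin are set beside the background, 5.14% of expressed genes higher and 3.97% lower. Of 40 expressed replication and mitosis genes 2 rose, and of 44 DNA repair genes 1 rose. Of 19 DNA methylation genes 2 rose, and of 43 polycomb and heterochromatin genes 2 rose. By edgeR 0 members of these lists fell. The share of rises lay above the background for DNA methylation and below it for the other lists. Rises of 1 or 2 genes a list are too few to set any of them apart from the background, which was not tested. Without Ctrl replicate 2 the rises were 0, 0, 1 and 1 in the same order. DNA repair had 3 falls without Ctrl replicate 3 and 2 without DAC replicate 3, and DNA methylation had 1 fall without Ctrl replicate 3. DNMT3B, a de novo DNA methyltransferase, had 8.75, 8.38 and 8.59 CPM in DAC, against 6.75, 6.26 and 5.87 CPM in Ctrl (log2 change 0.45, SE 0.08, edgeR adjusted p = 0.00301). CBX2, a polycomb subunit, rose by 0.67 (SE 0.12). Of 26 expressed p53 target genes 3 rose (1 without any single library but DAC replicate 3) and 0 fell, led by the kinase PLK2 (0.51, SE 0.09).

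Several families of short, abundant messages lay above 0 together. Of 54 expressed replication-dependent histone genes 23 rose and 0 fell, all 54 had a positive fitted change, and the median was 0.35. Their sum was 5774, 6245 and 5678 CPM in DAC, against 4688, 4859 and 4776 CPM in Ctrl. HIST1H1D, a linker histone, averaged 8.67 ± 0.542 CPM in DAC and 5.26 ± 0.268 CPM in Ctrl (log2 change 0.72, SE 0.08, edgeR adjusted p = 6.23e-05), although reads could be shared between near-identical histone copies. Of 37 expressed proteasome subunits 13 rose and 0 fell (median 0.20), and of 78 genes of the respiratory chain and ATP synthase 12 rose and 0 fell (median 0.16). Of 78 cytosolic ribosomal protein genes 5 rose (6.41%, background 5.14%) and 0 fell (median 0.15). Of 77 mitochondrial ones 3 rose (3.9%) and 1 fell (1.3%, background 3.97%), with a median of 0.15. The shares of rises in both ribosomal lists thus lay near the background. They were 42.6% for histones, 35.1% for the proteasome and 15.4% for the respiratory chain and ATP synthase. The 5 cytosolic rises were 0 without Ctrl replicate 2 or DAC replicate 2 and 1 without Ctrl replicate 1, Ctrl replicate 3 or DAC replicate 1. The 3 mitochondrial rises were 0 without Ctrl replicate 1 or DAC replicate 2 and 1 without Ctrl replicate 2 or Ctrl replicate 3, and the fall was lost without any library but DAC replicate 3. PSMA3, a core proteasome subunit, averaged 115 ± 2.91 CPM in DAC and 93.1 ± 1.54 CPM in Ctrl (0.30, SE 0.06).

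Transcript length moved with these changes. Over 12635 expressed coding genes, the Spearman correlation of the log2 fold change with relative length was -0.36 for DAC against Ctrl and 0.33 for DACTPL against TPL, as a description of genes within the same libraries. For single libraries, each set against the average of the 12, the same correlation was -0.24, -0.35 and 0.11 in DAC replicates 1 to 3, against 0.27, 0.19 and 0.28 in Ctrl. It was -0.22, 0.34 and 0.27 in DACTPL replicates 1 to 3, against -0.46, -0.45 and 0.17 in TPL. Among the 3453 shortest expressed genes 268 rose and 61 fell, and among the 3453 longest 118 rose and 218 fell. With the length trend taken off, these counts were 164 and 126 among the shortest and 240 and 138 among the longest. The histone rises then numbered 14 (median 0.14), the proteasome rises 11 (median 0.14), the respiratory rises 5 with 2 falls (median 0.06) and the cytosolic ribosomal rises 1 (median 0.02). The interferon-stimulated rises then numbered 32 (median 0.42). In DACTPL against TPL the medians of the histone, proteasome, respiratory and cytosolic ribosomal lists were 0.02, -0.03, -0.10 and -0.15. The histone sum was 6012, 5599 and 5485 CPM in DACTPL, against 6103, 6170 and 4935 CPM in TPL. In these medians an effect of decitabine cannot be told apart from the length trend of the TPL libraries. Without Ctrl replicate 1 the 3 counts of 23 histone, 13 proteasome and 12 respiratory rises were 10, 2 and 1. They were 15, 3 and 2 without Ctrl replicate 2, and 10, 4 and 1 without DAC replicate 2. Without DAC replicate 1 the proteasome and respiratory rises were both 4, and without Ctrl replicate 3 the histone rises were 15. The part of length in these rises was otherwise not tested.

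**Figure D3:**
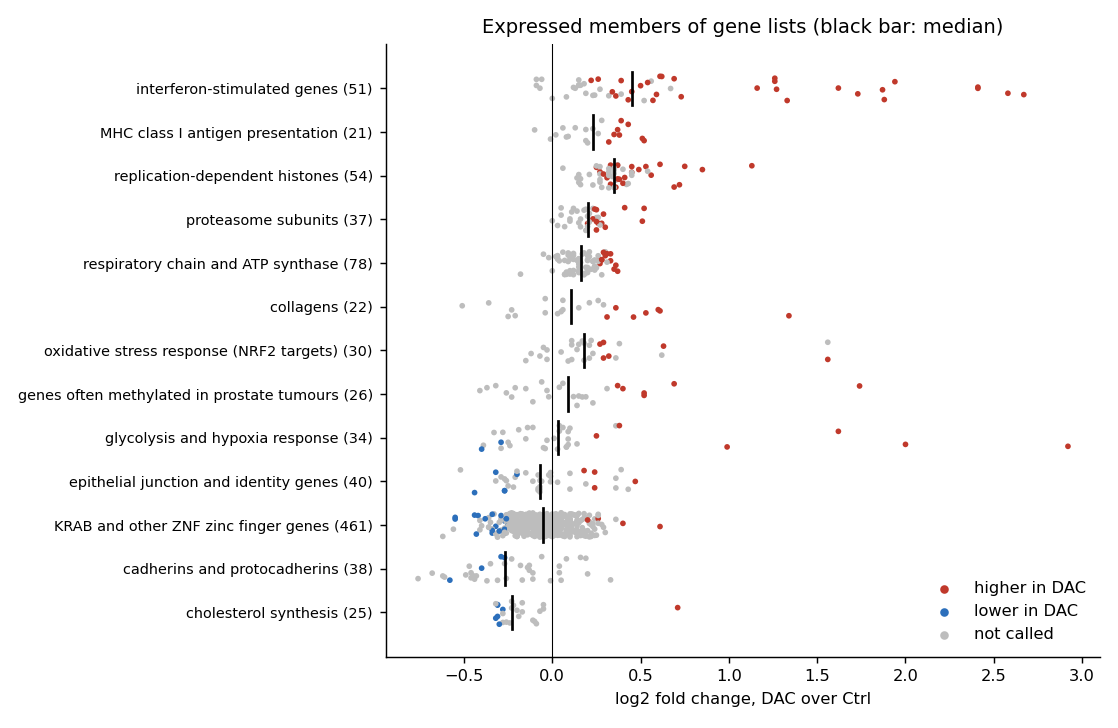
Log2 fold change of DAC over Ctrl (horizontal) of every expressed member of 13 gene lists, 1 point a gene, red for genes higher, blue for genes lower and grey for genes not called, with a black bar at the list's median and the number of expressed members in brackets. Interferon-stimulated genes reach 2.67, all 54 histone points and all 37 proteasome points lie above 0, and 24 of the 25 sterol points lie below it.

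Falls were smaller, and their leading genes came from no single list. PADI1, a peptidylarginine deiminase of keratinocytes, had 1.32, 2.01 and 1.34 CPM in DAC, against 3.97, 4.08 and 3.14 CPM in Ctrl (log2 change -1.26, SE 0.18, edgeR adjusted p = 0.000714). PSG3, a pregnancy-specific glycoprotein, had 0.711, 0.6 and 1.11 CPM in DAC, against 2.1, 1.84 and 2.07 CPM in Ctrl (-1.29, SE 0.20). The groups were apart in both genes, as their choice required, and both calls held whichever library was left out. CALB2, calretinin, a calcium-binding protein, had 3.45, 3.42 and 3.93 CPM in DAC, against 8.9, 8 and 6.56 CPM in Ctrl (-1.11, SE 0.18, adjusted p = 0.00168). S100A9, a subunit of calprotectin, averaged 7.94 ± 2.2 CPM in DAC and 15.8 ± 3.21 CPM in Ctrl (-0.99, SE 0.18), so that S100A4 and S100A9 changed in opposite directions. IL1RL1, the receptor of interleukin 33, had 9.56, 9.4 and 7.18 CPM in DAC, against 21, 19.3 and 15 CPM in Ctrl (-1.08, SE 0.24, adjusted p = 0.0175), and TMC4, of a family of membrane channel-like proteins, fell by 1.19 on the log2 scale (SE 0.27). The call of IL1RL1 was lost in 4 of the 6 runs that left out a library (highest adjusted p 0.0713) and that of TMC4 in 3 (highest adjusted p 0.0812).

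Among falls of 1.5-fold or more, GOLGA8B, CCDC144B, SERPINA1, SLFN5 and NBPF14 had the highest Ctrl levels. SLFN5, a schlafen protein, had 37.5, 38.6 and 44.8 CPM in DAC, against 64.6, 62 and 59.8 CPM in Ctrl (log2 change -0.62, SE 0.08, edgeR adjusted p = 0.000249). GOLGA8B, CCDC144B and NBPF14 belong to families of near-identical copies whose counts are uncertain, and the call of NBPF14 was lost in 5 of the 6 runs that left out a library, all but the one without DAC replicate 3. Of 38 expressed cadherins and protocadherins 4 fell and 0 rose (median -0.26), beside 3.97% and 5.14% of all expressed genes. The falls were 2 without Ctrl replicate 3 and 1 without DAC replicate 1 or DAC replicate 2. In DACTPL against TPL 2 members of this list were higher and 1 lower (median 0.02). Within this list CDH3, P-cadherin, averaged 408 ± 16.4 CPM in DAC and 490 ± 29.8 CPM in Ctrl (-0.27, SE 0.06), a fall lost without DAC replicate 1 or DAC replicate 2 (highest adjusted p 0.0626), and FAT4, a giant atypical cadherin, 23.9 ± 2.42 CPM in DAC and 31.6 ± 0.844 CPM in Ctrl (-0.40, SE 0.08). Of 461 expressed ZNF genes, most of them DNA-binding repressors, 17 fell (3.69%, background 3.97%) and 4 rose (0.868%, background 5.14%), with a median of -0.05. Left out one at a time, the libraries gave 3 to 15 falls, with 3 without Ctrl replicate 2, 4 without Ctrl replicate 1 or DAC replicate 1, and 5 and 11 without DAC replicates 2 and 3. The rises were 0 without Ctrl replicate 1, DAC replicate 1 or DAC replicate 2 and 1 without Ctrl replicate 2 or Ctrl replicate 3. Of 32 expressed potassium channels 2 fell (6.25%, background 3.97%, and 1 without any single library but DAC replicate 3), among them KCNMA1, the large-conductance calcium-activated channel, at 17.3 ± 0.321 CPM in DAC and 29.5 ± 2.77 CPM in Ctrl (-0.77, SE 0.15). The lysosomal protein CD68 averaged 27.9 ± 0.903 CPM in DAC and 38.8 ± 1.93 CPM in Ctrl (-0.47, SE 0.09, adjusted p = 0.00403).

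Of the noncoding transcripts that were called most fell. Of 1045 expressed long noncoding RNAs (lncRNAs) and transcribed pseudogenes 95 fell (9.09%) and 6 rose (0.574%), while of 12635 protein-coding genes 450 fell (3.56%) and 700 rose (5.54%). The median log2 fold change was -0.17 over the noncoding class and 0.01 over the coding class. By kind, 55 of 713 lncRNAs and 40 of 332 transcribed pseudogenes fell. The count of 95 was 36 without Ctrl replicate 1, 46 without Ctrl replicate 2, 43 without DAC replicate 1, 41 without DAC replicate 2 and 213 without all libraries numbered 3. With the length trend removed it was 119. The 6 rises were 3 without Ctrl replicate 1 and 2 without Ctrl replicate 2, DAC replicate 1 or DAC replicate 2. The 1 noncoding rise past 2-fold, named after its values were seen, was AFAP1-AS1, an antisense RNA of AFAP1, at 21 CPM in DAC and 3.38 CPM in Ctrl (2.64, edgeR adjusted p = 6.56e-08). An antisense RNA and its partner cannot be told apart unless counting used strand, a setting not given in the sources used here, and reads of pseudogenes may be shared with their parent genes.

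Few of the 95 noncoding falls were called again in the second decitabine comparison. Of the 95, 8 (8.42%) were also lower in DACTPL against TPL, whereas 151 of the 450 coding falls were (33.6%), beside a background of 4.03% of expressed genes lower there. Their median log2 fold change in DACTPL against TPL was 0.07, and that of the coding falls was -0.19. Summed over the 95 genes, the level was 890, 892 and 942 CPM in DAC, against 1289, 1272 and 1200 CPM in Ctrl. In the second comparison it was 955, 1058 and 1014 CPM in DACTPL, against 961, 949 and 1073 CPM in TPL. The Ctrl libraries stood above the libraries of all 3 other groups, and the DACTPL and TPL libraries overlapped. Over the 450 coding falls the sum was 26645, 26200 and 27017 CPM in DAC, against 33562, 33418 and 32691 CPM in Ctrl. In the second comparison it was 26409, 27756 and 27709 CPM in DACTPL, against 31513, 31680 and 31862 CPM in TPL. Here both decitabine groups lay below both groups without it. The 95 and the 450 were chosen by the DAC and Ctrl values, so those sums describe them, and the DACTPL and TPL sums were not used in the choice. The cause of the difference between the classes was not tested.

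**Figure D4:**
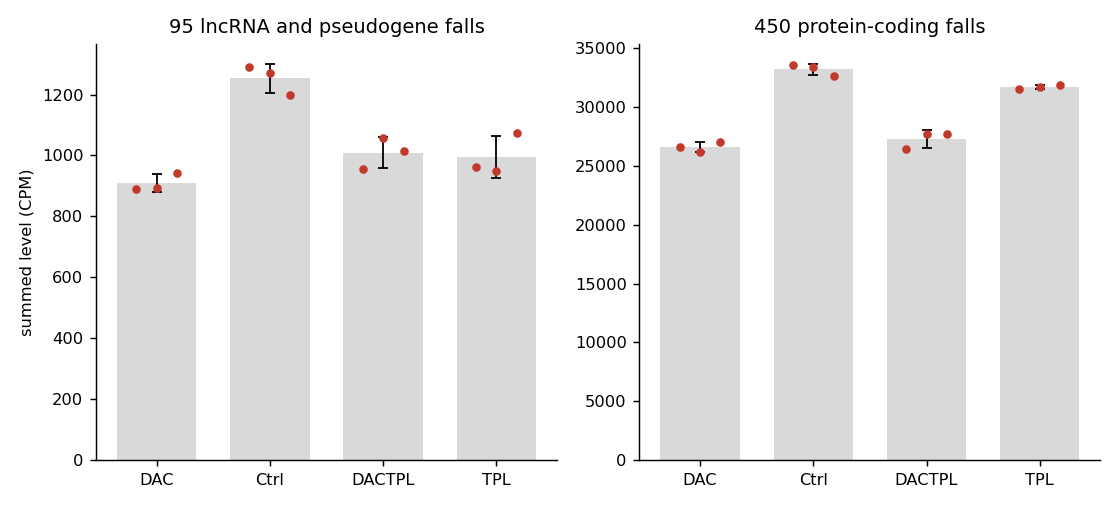
Summed level in CPM of the 95 lncRNA and transcribed pseudogene falls (left) and the 450 protein-coding falls (right), with 3 libraries as points, the mean as a bar and the SD as a line, for DAC, Ctrl, DACTPL and TPL. On the left Ctrl (1200 to 1289 CPM) stands above the other groups, and on the right DAC and DACTPL both stand below Ctrl and TPL.

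Many genes called in DAC against Ctrl were called again in the comparison of DACTPL with TPL, in which 766 expressed genes were higher (5.55%) and 557 lower (4.03%). Of the 710 rises in DAC, 376 were also higher in DACTPL against TPL, which is 53% of the list of 710 and 49.1% of the list of 766. Of the 548 falls, 161 were also lower, which is 29.4% of that list and 28.9% of the list of 557. Opposite calls numbered 4 among the rises and 2 among the falls. The 376 shared rises were 248 without Ctrl replicate 1 and 246 without Ctrl replicate 2, and the 161 shared falls were 95, 96, 104 and 88 without Ctrl replicate 1, Ctrl replicate 2, DAC replicate 1 and DAC replicate 2. Of the 82 rises of 2-fold or more 80 were called again, all 82 had a positive fold change, and their median was 1.46 in DACTPL against TPL and 1.34 in DAC against Ctrl. Of the 11 falls of 2-fold or more 7 were called again. Of the 51 expressed interferon-stimulated genes 34 were higher and 1 lower in DACTPL against TPL (median 0.50), and of the 21 class I genes 2 were higher (median 0.13). In the authors' deposited table of DAC against Ctrl, 685 of the 710 rises and 528 of the 548 falls were also called at an adjusted p below 0.05.

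Single genes behaved alike in both comparisons at the top of the range. SRGN had 21, 19.1 and 18.6 CPM in DACTPL, against 1.35, 1.86 and 1.81 CPM in TPL, a change of 3.53 on the log2 scale (SE 0.13). SPOCK2 rose by 2.85 (SE 0.08) there, ALDOC by 3.29 (SE 0.16), and TFPI2 by 2.02 (SE 0.12), while SERPINA1 fell by 0.70 and SLFN5 by 0.58 on the log2 scale. Of the 710 rises 618 (87%) had a positive fold change in DACTPL against TPL, as did 48.6% of all expressed genes, and of the 548 falls 420 (76.6%) had a negative one, as did 51.4%. The medians there were 0.30 for the rises and -0.17 for the falls. TAGLN, an actin-binding protein of smooth muscle, changed by 0.52 (SE 0.09) in DAC against Ctrl and -0.06 (adjusted p = 0.741) in DACTPL against TPL. KCNMA1, the channel gene, changed by -0.77 (SE 0.15) in DAC against Ctrl and -0.24 (SE 0.15, adjusted p = 0.34) in DACTPL against TPL. The difference between the comparisons was itself tested for each gene as an interaction. It passed for 1 of 15890 genes (0.00629%), EYA4-AS1, so neither TAGLN nor KCNMA1 is shown to respond differently.

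**Figure D5:**
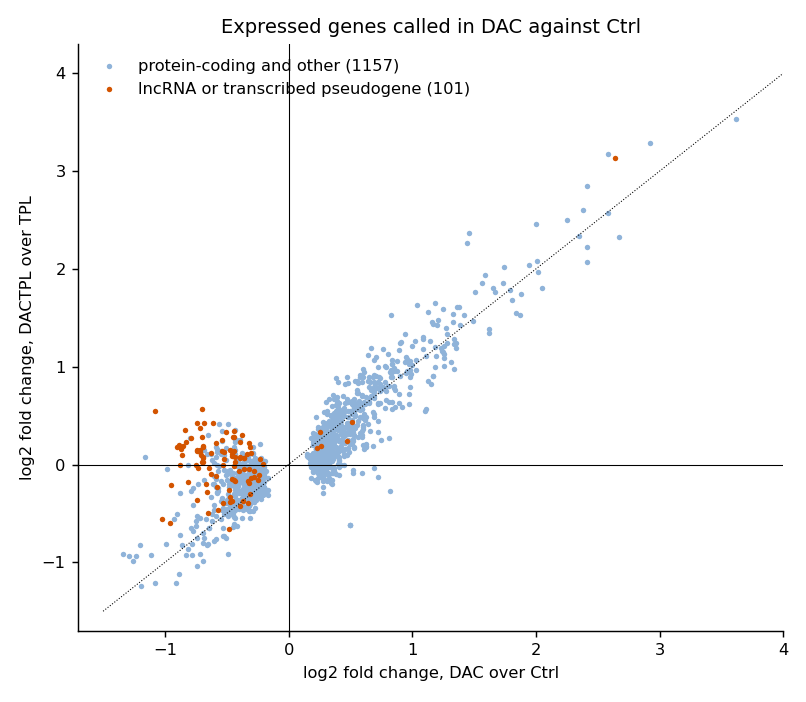
Log2 fold change of DACTPL over TPL (vertical) against that of DAC over Ctrl (horizontal) for the 1258 expressed genes called in DAC against Ctrl, blue for protein-coding and other genes and orange for 101 lncRNAs and transcribed pseudogenes. The dotted line marks equal change. Large rises lie near the line, and most orange points among the falls lie around 0 on the vertical axis.

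Promoters of called genes were compared by their CpG content, since CpG methylation is what decitabine removes. Over the 300 bases around the first listed start, genes with at least 25 CpG sites, the median of tested genes, were called CpG-rich. Among expressed coding genes on the chromosomes held in the promoter table, 50.3% of rises were CpG-rich (279 of 555, exact Clopper-Pearson 95% interval 46 to 54.5%), as were 47% of falls (167 of 355, 41.8 to 52.4%) and 57.5% of genes not called (5464 of 9507, 56.5 to 58.5%). Promoters with 5 or fewer CpG sites made up 8.47% of rises, 14.4% of falls and 5.72% of genes not called. The intervals of rises and falls overlapped, and both lay below the interval of genes not called. These intervals cover counting error only and treat genes as independent. With calls from the fit without the length trend, 53.5% of rises, 46.5% of falls and 57.5% of genes not called were CpG-rich. No interval is given for those shares, so the separation of rises from genes not called is not shown there. Over all expressed genes the comparison was void, because 78.3% of rises and 72.3% of falls had a promoter, under the 80% required.

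The promoters of 2 genes that rose, TFPI2 and SPOCK2, and 2 that fell, KCNMA1 and PADI1, are shown because both directions held CpG-rich and CpG-poor promoters. They were picked for this range after their values were seen. Each line gives 250 bases before the start from RefSeq on GRCh38.p14, 5′ to 3′, with CpG sites in capitals.
TFPI2, chr7:93890754-93891003, minus strand: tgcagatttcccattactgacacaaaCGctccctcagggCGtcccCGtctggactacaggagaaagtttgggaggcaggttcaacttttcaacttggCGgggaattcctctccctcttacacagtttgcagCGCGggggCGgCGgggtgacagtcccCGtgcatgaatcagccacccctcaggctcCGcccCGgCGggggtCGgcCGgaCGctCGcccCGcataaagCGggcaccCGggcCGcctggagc
SPOCK2, chr10:72089033-72089282, minus strand: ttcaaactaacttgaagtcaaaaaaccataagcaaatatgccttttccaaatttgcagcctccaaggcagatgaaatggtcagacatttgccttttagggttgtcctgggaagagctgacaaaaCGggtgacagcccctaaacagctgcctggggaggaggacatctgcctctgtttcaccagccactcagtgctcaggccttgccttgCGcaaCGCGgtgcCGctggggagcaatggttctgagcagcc
KCNMA1, chr10:77637809-77638058, minus strand: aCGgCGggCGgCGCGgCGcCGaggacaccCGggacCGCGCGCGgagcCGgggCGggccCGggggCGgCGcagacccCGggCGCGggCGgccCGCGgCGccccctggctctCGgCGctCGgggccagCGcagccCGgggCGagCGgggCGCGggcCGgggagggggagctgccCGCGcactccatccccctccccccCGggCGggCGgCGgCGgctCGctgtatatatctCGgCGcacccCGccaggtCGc
PADI1, chr1:17204878-17205127, plus strand: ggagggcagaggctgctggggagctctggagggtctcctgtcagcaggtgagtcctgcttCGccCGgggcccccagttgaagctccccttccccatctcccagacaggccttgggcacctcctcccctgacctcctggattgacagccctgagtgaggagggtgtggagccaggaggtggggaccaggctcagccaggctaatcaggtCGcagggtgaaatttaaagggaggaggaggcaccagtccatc
These windows held 20 CpG sites in TFPI2 and 5 in SPOCK2, which rose, and 46 in KCNMA1 and 3 in PADI1, which fell. Over the windows of 300 bases the numbers were 26, 8, 54 and 4 in the same order.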

How the data were processed

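Total RNA libraries of DU145 cells were made with a stranded kit and sequenced as read pairs of 100 bases, per the labels' protocols. The authors deposited RSEM 1.2.09 expected counts on hg19, per the submitters' processing notes. TPM values (posterior means, by their column names) were deposited by the authors for 9 libraries. The log2 fold changes and adjusted p-values of DAC against Ctrl in the authors' deposited table were made with DESeq2 (R 4.0.4), as the submitters' processing notes list. The strand setting of the counting was not given in the sources used here, and 15 further columns of per-sample values were not used.

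Expected counts were rounded to whole numbers (64.3% lay within 0.005 of one). In R 4.3.3, edgeR 4.0.16 with TMM scaling and filterByExpr fitted the quasi-likelihood model to all 12 libraries with 1 coefficient a group (8 residual degrees of freedom, biological coefficient of variation 9%), and contrasts gave DAC against Ctrl, DACTPL against TPL and their difference. Adjusted p-values are Benjamini-Hochberg over 15890 genes, called below 0.05, two-sided. CPM are edgeR's, on TMM-scaled library sizes. Fits were tested on simulated data. Alternatives used limma 3.58.1 on log2(TPM + 1) and log2(TPM + 0.1), DESeq2 1.42.0, RLE or no scaling, other filters, the 6 libraries alone, a replicate block, removal of the length trend and each library left out. Leaving out all libraries numbered 3, and limiting CpG counts to coding genes on chromosomes in the promoter table, were chosen after seeing the data. Of 28 symbols altered to dates 27 were resolved, and 73 tested entries belonged to sets with repeated counts.

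Named genes were the 12 largest rises and 12 largest falls with libraries that did not overlap, the 5 rises and 5 falls of at least 1.5-fold with the highest Ctrl CPM, and up to 4 called members of each list, passing over unnamed, hyphenated and repeated entries and further members of a family. The text prints a selection, and some genes are not reported here. Members and gene lists were chosen with earlier results of these data known. Promoters are RefSeq windows on GRCh38.p14 at the first start listed for a gene.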

Additional observations from a re-analysis of the deposited data

Results flagged for a closer look

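EYA4-AS1, an antisense RNA, was the 1 gene of 15890 whose decitabine effect differed between the pairs of groups by the interaction test. The effect in DACTPL against TPL minus that in DAC against Ctrl was 0.85 on the log2 scale (SE 0.11, edgeR adjusted p = 0.0391). EYA4-AS1 had 15.5, 15.5 and 15.6 CPM in DAC, against 27, 26.9 and 23 CPM in Ctrl, a change of -0.72 (SE 0.07, adjusted p = 4.72e-05). It had 18.9, 17.4 and 18.4 CPM in DACTPL, against 15.6, 17.5 and 17 CPM in TPL, a change of 0.13 (SE 0.08, adjusted p = 0.318). The gene was named after its values were seen, and its counts are uncertain because the strand setting of the counting was not given in the sources used here.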

How the results depend on the processing

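Of 187 named genes 185 were called, and of these 185, 0 changed direction under any alternative and 95 lost their call in at least 1 run that left out a library. Without one library, the rises among all tested genes (996 from all libraries) numbered 527 to 953 and the falls (570) 216 to 587. The expressed rises (710) numbered 320 to 684 and the falls (548) 210 to 549, the 2-fold rises (82) 74 to 94 and the 2-fold falls (11) 7 to 41, and those also called in DACTPL against TPL 246 to 333 rises (376) and 88 to 149 falls (161). With all libraries numbered 3 left out there were 1614 rises and 1192 falls among all tested genes, 1328 and 1144 among expressed genes, 53 falls of 2-fold and 319 falls shared with DACTPL against TPL. By limma on log2(TPM + 0.1) there were 473 rises and 916 falls, 254 and 876 among expressed genes. On log2(TPM + 1) there were 496 and 1013, 279 and 969 among expressed genes, and 34 rises and 4 falls of 2-fold. Same-numbered DAC and Ctrl libraries deviated together with r of 0.14, 0.07 and 0.43, and only the libraries numbered 3 correlated best with their own number, so the numbers were not taken as pairs. With the replicate block there were 1545 rises and 1029 falls, 1219 and 989 among expressed genes, 565 and 330 of them shared with DACTPL against TPL. With the block and the length trend removed there were 1592 and 1059, 1264 and 1008 among expressed genes, 20 falls of 2-fold, and 712 and 439 shared. By the ratio of observed to expected CpG sites, 44% of rises, 40.6% of falls and 55.2% of genes not called were CpG-rich. By the number of sites the shares were 50.3%, 47% and 57.5%. The cause of these shifts was not tested, and neither was the part of having fewer libraries in the runs that left some out. DESeq2, RLE scaling, no scaling, other filters, the 6 libraries alone and length removal alone kept each of these counts within 1.5 times.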
